A study of Homo sapiens with 9 samples.

Results

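The interferon-stimulated genes described here are 47 genes chosen by symbol, from genes known to rise when a cell is exposed to interferon. The deposited table holds 21170 features, and every one of the 47 had at least 1 count. In 45 of them there were enough counts for a test, and MX2 and IFI44L fell below that limit. The genes were read in poly(A) RNA of HaCaT cells, an immortalized human keratinocyte line that grew out of adult skin without a viral gene. Of 9 libraries, 3 came from cells carrying the empty vector (Vector), 3 from cells made to overexpress FTO (FTO), and 3 from cells made to overexpress a form of FTO whose demethylase activity is disrupted (mut-FTO). No drug, cytokine or infection is named in the labels for any group, nor the promoter of the vector, the mutated residue, or whether a group was a pool or a clone. All groups carry the cells' own FTO gene. The series concerns FTO in psoriasis-like dermatitis, and the comparison of FTO with mut-FTO asks which changes accompany the enzyme's activity.

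Interferons are secreted proteins that warn cells of infection. After binding their receptors they switch on Janus kinases, which phosphorylate STAT proteins, and STAT2 together with IRF9 enters the nucleus and binds a short DNA element in front of the responding genes. The products sense viral RNA and DNA, raise further interferon, or act on the virus itself by degrading RNA, blocking translation, altering membranes or tagging proteins with the ubiquitin-like ISG15. Many of these genes have a low constitutive level in unstimulated keratinocytes, which make interferon kappa of their own. FTO removes methyl groups from adenosines in RNA.

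Libraries held 32222203 to 37846027 counts. FTO itself stood at 18.4, 17.0 and 25.8 CPM (counts per 1000000 of the scaled library) in Vector, at 69.6, 77.1 and 62.6 in FTO, and at 49.7, 82.7 and 64.3 in mut-FTO, so its level told Vector from the overexpressing groups but not these from each other. Columns of the table were assigned to FTO and mut-FTO by their letter codes alone, and if these were exchanged, each group's changes below would belong to the other. All 10 keratinocyte markers were expressed, with a summed level of 20335 to 27425 CPM in Vector, 25072 to 26217 in FTO and 28252 to 35399 in mut-FTO. The basal keratins KRT5 (log2 0.69, edgeR adjusted p = 0.0468) and KRT14 (log2 0.91, adjusted p = 0.00876) were called higher in mut-FTO than in Vector. At an unadjusted edgeR p below 0.05, 2 of the 10 markers were higher there and 2 lower, where 10.1% and 11.0% of all genes were. The lower markers were TP63 (log2 -0.50) and COL17A1 (log2 -0.42), neither of them called. Of 9 leukocyte markers 5 had any count, and their summed level was 0.587 to 1.04 CPM in Vector, 0.268 to 0.664 in FTO and 0.578 to 1.39 in mut-FTO. CD4, MS4A1 and NKG7 were among those at 0 in every library. CD3E and ITGAM passed the filter and were not called. CD3E had 60, 17 and 32 counts in total in Vector, FTO and mut-FTO. ITGAM had 6, 0 and 0 counts in the Vector libraries, 15, 7 and 8 in those of FTO and 28, 11 and 8 in those of mut-FTO. Its log2 change in mut-FTO was 2.91 (edgeR adjusted p = 0.1345). Fibroblast markers summed to 9.59 to 10.4 CPM in Vector, 6.64 to 8.30 in FTO and 8.14 to 10.5 in mut-FTO, and melanocyte markers to 0.643 to 0.895, 0.832 to 1.34 and 1.32 to 1.59. The fibroblast marker COL1A1 had a log2 change of -0.98 in FTO (edgeR adjusted p = 0.103) and was called lower there by DESeq2. Endothelial markers summed to 0.874 to 1.73 CPM in Vector, 0.401 to 1.07 in FTO and 0 to 0.378 in mut-FTO. Among them CDH5 had a log2 change of -2.91 in mut-FTO (edgeR adjusted p = 0.0528) and was called lower there by DESeq2 and limma-voom. The part of these marker shifts in the results below was not tested. In bulk RNA, fewer cells expressing a gene and less of its RNA per cell cannot be told apart. Whether replicate libraries stem from different cultures is not in the labels, and the p-values therefore describe the spread among these libraries, which may be technical.

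The DNA element bound after interferon was looked up in the promoters of the members, since it is the feature by which such genes are known. The interferon-stimulated response element was searched by its core, GAAA followed after any 2 bases by GAAA, on both strands of windows from RefSeq (build GRCh38.p14) that run from 250 bases before a transcription start to 50 after it. Matches could overlap. Of the 47 members 37 had a window, and 23 of these 37 (62.2%) held the core, against 3.57% of all 35116 windows and 4.38% of all 27305 genes with a window. It was present in 22 of 31 effector genes, in 1 of 3 sensors (IFIH1) and in 0 of 3 transcription factors (STAT2, IRF1 and IRF9). The stretches below run 5′ to 3′ on the strand of the gene and end before the start site, with the core in capitals, which reads TTTC, 2 bases and TTTC where it lies on the opposite strand. The leading genes were chosen among members that hold the core and whose RNA was much lower in groups described below. ISG15 and PARP14 were chosen because they hold the same core and were not called by edgeR with all 9 libraries. DESeq2 did call ISG15 lower in mut-FTO than in Vector.
IFI6: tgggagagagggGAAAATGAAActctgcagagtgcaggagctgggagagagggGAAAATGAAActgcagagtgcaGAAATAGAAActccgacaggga
BST2: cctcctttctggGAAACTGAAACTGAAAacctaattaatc
IFI27: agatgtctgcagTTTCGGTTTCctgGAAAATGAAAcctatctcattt
IFIT1: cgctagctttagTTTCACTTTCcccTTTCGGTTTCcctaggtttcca
IFIT3: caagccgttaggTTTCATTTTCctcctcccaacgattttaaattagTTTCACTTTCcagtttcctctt
IFI44: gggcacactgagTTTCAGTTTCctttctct
ISG15: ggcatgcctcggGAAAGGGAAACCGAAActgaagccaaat
PARP14: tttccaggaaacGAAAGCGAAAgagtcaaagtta

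The IFI6 stretch lies at chr1:27672264-27672360 on the minus strand and holds 3 matches, the first 156 bases before the start. BST2 lies at chr19:17405733-17405772 on the minus strand with 2 overlapping matches, and IFI27 at chr14:94110616-94110662 on the plus strand with 1 match on each strand. The plus-strand stretches of IFIT1 (chr10:89392495-89392541) and IFIT3 (chr10:89327829-89327896) hold 2 matches each, and that of IFI44 (chr1:78649759-78649788) holds 1. ISG15 (chr1:1013372-1013411, plus strand) holds 2 overlapping matches and PARP14 (chr3:122680798-122680831, plus strand) holds 1. PARP9 and DTX3L are transcribed away from each other and share 1 match, which spans the start of DTX3L and lies before that of PARP9. Of the members called lower in mut-FTO and with a window, 12 of 16 held the core, and of those tested and not called 10 of 20. The called members whose windows held no match were OAS1, SLFN11, CMPK2 and XAF1. A match is a description of these letters, not evidence that a factor binds there.

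**Figure D1:**
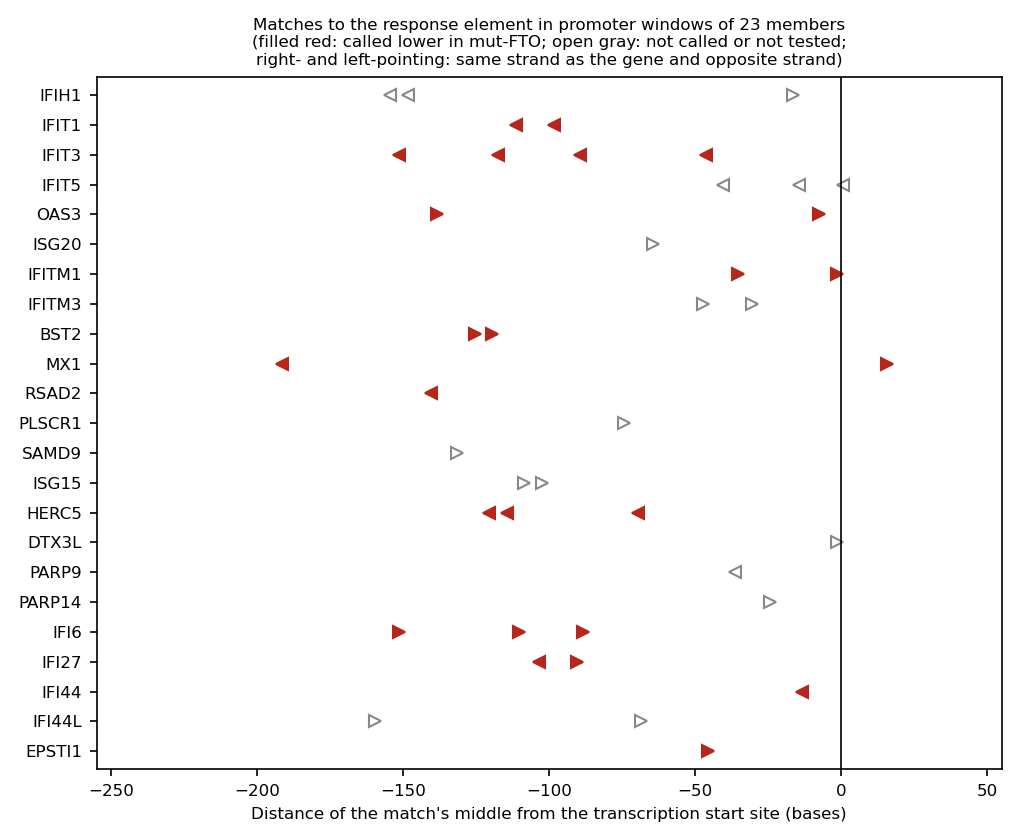
Matches to the response element core in the promoter windows of 23 members, by the distance of the match's middle from the transcription start (x axis, bases), 1 row per gene. Filled symbols mark genes called lower in mut-FTO than in Vector and open symbols those not called or not tested, and matches are found in both kinds of gene. Where a gene has several start sites, a match is drawn once, against the first listed start whose window holds it.

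Levels of the members in Vector cells spanned a wide range once divided by transcript length. IFITM3, which stops viruses from fusing with the membrane, was highest at 1587 ± 175 CPM per kilobase (SD, n = 3), followed by its relative IFITM1 at 449.9 ± 66.7 and by IFI6, a small protein of mitochondria and endoplasmic reticulum, at 254 ± 134. IFITM2 at 163 ± 14.8 and IFI27 at 103 ± 72.0 CPM per kilobase came next. The spreads of IFI6 and IFI27 were wide enough that the order of IFI6, IFITM2 and IFI27 was not resolved. In mut-FTO IFITM3, IFITM1 and IFITM2 still led at 1128 ± 294, 289 ± 52.8 and 168 ± 24.5 CPM per kilobase, whereas IFI6 stood at 2.92 ± 0.450 and IFI27 at 4.72 ± 1.24. IFITM genes are near-identical copies, and the handling of reads that fit several of them is not given.

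In FTO against Vector 6 of the 45 tested members were called lower and 0 higher, where called means that the edgeR quasi-likelihood test gave a Benjamini-Hochberg adjusted p under 0.05 over 13713 genes. Among all genes tested 0.438% were called lower and 0.306% higher. At an unadjusted p below 0.05, 20 members were lower and 0 higher, where 6.95% of all genes were lower and 4.94% higher, and DESeq2 called 11 lower and 0 higher, where it called 1.76% of all genes lower. The median log2 fold change was -0.52 for the members and -0.0020 for all genes, and estimates were below 0 for 43 of 45. In 25 of the 45 every FTO library lay below every Vector library, as in 10.9% of all genes tested. The called members were IFI6, IFI27, BST2, MX1, OAS2 and OAS3. Vector replicate 3 bears on the count: without it 13 members were lower, where 2.26% of all genes were, and without that library and mut-FTO replicate 2 together 20 were lower, where 4.19% of all genes were. It also bears on the direction of estimates. Without it those of DDX58 (log2 0.38), IFI16 (0.25), SLFN5 (0.23) and HERC6 (0.22) were above 0, none of them called. IFIT5 (0.09), PARP9 (0.05), PLSCR1 (0.03) and SAMD9 (0.02) were also above 0, and the other tested members were below.

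In mut-FTO against Vector 20 of 45 members were called lower and 0 higher by the same edgeR test, where 4.51% of all genes were called lower and 3.27% higher. At an unadjusted p below 0.05, 26 were lower and 0 higher, where 11.0% of all genes were lower and 10.1% higher, and DESeq2 called 22 lower and 0 higher, where it called 7.09% of all genes lower. Without Vector replicate 3 the count was 24, where 8.41% of all genes were lower, and without that library and mut-FTO replicate 2 it was 25, where 9.62% were. The median was -0.70 for the members and -0.0012 for all genes. Every mut-FTO library lay below every Vector library in 22 of the 45, as in 11.8% of all genes. Both comparisons use the same Vector libraries, so they are not independent of each other.

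FTO set directly against mut-FTO gave 9 of 45 members higher in FTO and 0 lower, where 1.20% of all genes were called higher and 1.13% lower. At an unadjusted p below 0.05, 13 were higher and 0 lower, where 6.69% of all genes were higher and 7.30% lower, and DESeq2 called 11 higher and 0 lower, where it called 2.70% of all genes higher. The median was 0.32 against 0.0046 for all genes, and every FTO library lay above every mut-FTO library in 17 of 45 members, as in 14.8% of all genes. The 9 genes were IFI6, IFI44, SLFN11, RSAD2, IFIT1, IFIT2, IFIT3, OASL and TRIM22. Without Vector replicate 3, which enters this comparison through the shared estimate of the spread, 14 were higher, where 4.60% of all genes were, and IRF1 was lower, where 5.63% were. Leaving out mut-FTO replicate 2 as well also gave 14, where 4.63% of all genes were higher. Without FTO replicate 2 or mut-FTO replicate 3 the count was 5, which was not set beside a share of all genes.

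**Figure D2:**
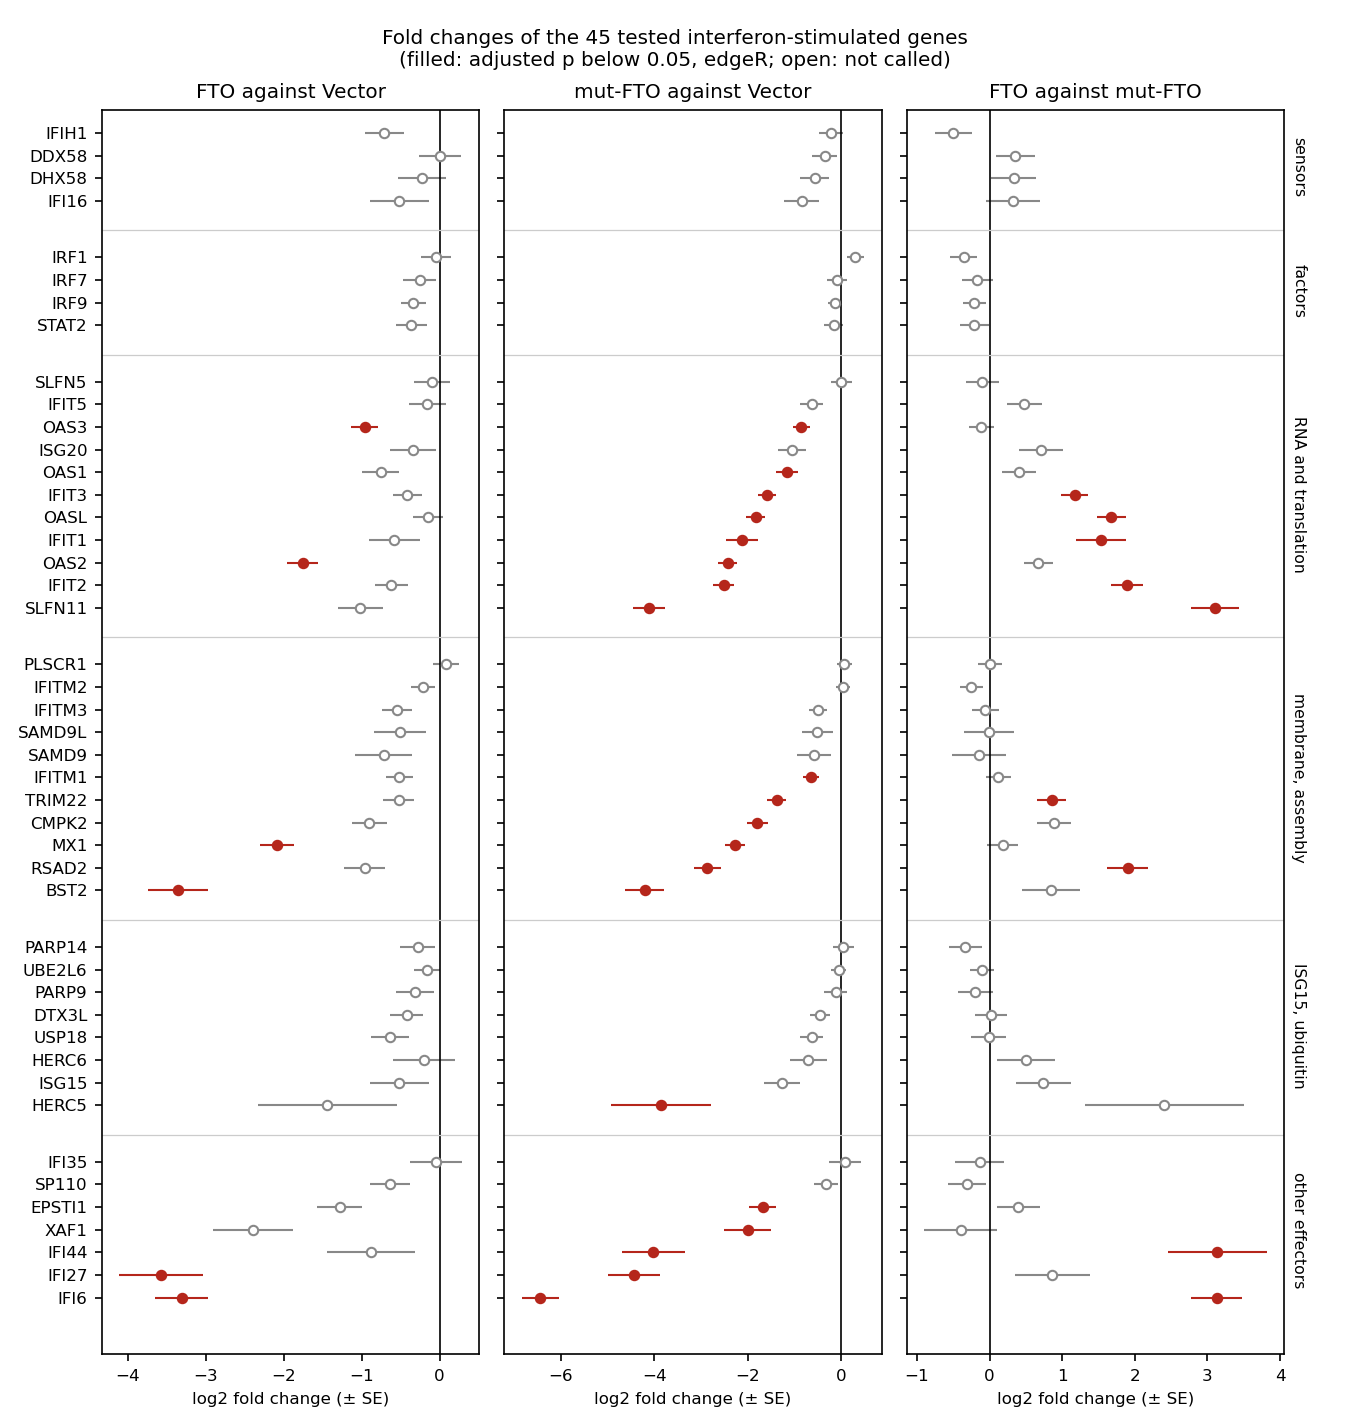
Log2 fold changes (x axis, ± SE) of the 45 tested members, 1 row per gene, grouped by role, for FTO against Vector (left), mut-FTO against Vector (middle) and the 2 overexpressing groups against each other (right). Filled points are called, 6 lower in the left panel, 20 lower in the middle and 9 higher in the right, and no sensor or transcription factor is among them.

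The sensors and the transcription factors were not called in any of the comparisons (8 genes, edgeR adjusted p at least 0.224). At an unadjusted p below 0.05, 1 sensor was lower in FTO, 1 was lower in mut-FTO and 0 of the factors differed in either, and DESeq2 called 0 of the 8. Of all genes tested, 6.95% were lower in FTO at that unadjusted p and 11.0% in mut-FTO. DDX58 encodes RIG-I, which detects viral RNA with a triphosphate end, and stood at 11.0, 13.4 and 23.8 CPM in Vector, 16.4, 14.4 and 17.7 in FTO cells and 15.3, 11.4 and 11.2 in mut-FTO cells. The groups overlapped, and the log2 fold change was 0.0061 in FTO (SE 0.27) and -0.35 in mut-FTO (SE 0.27). Without Vector replicate 3 it was 0.38 in FTO and 0.04 in mut-FTO, not called in either. IFIH1, the MDA5 sensor of long double-stranded RNA, was at 8.97, 9.90 and 17.9 CPM in Vector and 7.41, 6.84 and 8.27 in FTO, below every Vector library but not called (log2 -0.71, SE 0.26; adjusted p = 0.299). Its mut-FTO libraries at 11.5, 9.71 and 10.6 CPM overlapped Vector. With Vector replicate 3 left out, the log2 fold change of IFIH1 was -0.35 in FTO and 0.16 in mut-FTO, not called in either. IFI16, a nuclear sensor of DNA, ranged from 91.0 to 323 CPM within Vector, with replicate 3 at the top. Its log2 fold change was -0.52 in FTO (SE 0.37) and -0.84 in mut-FTO (SE 0.38). Without Vector replicate 3 these were 0.25 and -0.05, not called in either. DHX58, the regulatory relative LGP2, had -0.23 and -0.56 (SE 0.31 each) and was called lower in mut-FTO when Vector replicate 3 was left out (log2 -0.88, adjusted p = 0.0116).

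STAT2, the partner that gives the interferon-activated complex its transactivation domain, was at 25.5, 30.8 and 24.0 CPM in Vector, 20.5, 22.8 and 19.1 in FTO cells and 18.3, 29.9 and 24.2 in mut-FTO cells. IRF9, the subunit that recognizes the response element, was at 69.0, 59.3 and 55.3 CPM in Vector, 47.7, 46.1 and 51.7 in FTO cells and 50.3, 64.1 and 54.0 in mut-FTO cells. FTO libraries lay below all Vector libraries for both genes and neither change was called (log2 -0.36, SE 0.20, and -0.34, SE 0.16). IRF7, which amplifies interferon production, had a log2 fold change of -0.26 in FTO (SE 0.21) and -0.09 in mut-FTO (SE 0.21). It was called lower in FTO without Vector replicate 3 (log2 -0.50, adjusted p = 0.0482). IRF1, a broader inflammatory regulator, was at 166, 179 and 107 CPM in Vector, 147, 153 and 137 in FTO cells and 164, 200.4 and 196 in mut-FTO cells. Its log2 difference between FTO and mut-FTO was -0.36 (SE 0.19; adjusted p = 0.441), and -0.37 with a call once Vector replicate 3 was left out (adjusted p = 0.0365).

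IFI6 had the largest fall among the members in mut-FTO. It was counted at 326, 215 and 101 CPM in Vector, at 21.4, 19.9 and 23.3 in FTO and at 2.11, 2.41 and 2.86 in mut-FTO. The groups did not overlap, and Vector spread over a wider range than either of the others. The fall was 9.92-fold in FTO (log2 -3.31, SE 0.34; adjusted p = 0.000784) and 86.9-fold in mut-FTO (log2 -6.44, SE 0.40; adjusted p = 1.89e-06), and FTO was 8.75-fold above mut-FTO (log2 3.13, SE 0.35; adjusted p = 0.000803). All 3 calls held with any of the 9 libraries left out. IFI27, a small mitochondrial and nuclear envelope protein of the same family, was at 119, 87.0 and 17.0 CPM in Vector, 5.84, 5.90 and 7.01 in FTO cells and 4.27, 2.48 and 3.52 in mut-FTO cells. Vector replicate 3 was the lowest Vector library and still above every other. IFI27 fell 11.9-fold in FTO (adjusted p = 0.00959) and 21.6-fold in mut-FTO (adjusted p = 0.000487), and its difference between FTO and mut-FTO was not called (log2 0.86, SE 0.52; adjusted p = 0.505), and was called without Vector replicate 3 (log2 0.84, adjusted p = 0.00957). The call in FTO was lost without any single FTO library (adjusted p = 0.0722 to 0.0884).

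IFI44, a cytoplasmic protein that restrains virus growth, was at 2.51, 3.41 and 4.23 CPM in Vector, 1.75, 1.45 and 2.32 in FTO cells and 0, 0.475 and 0.173 in mut-FTO cells. It was 16.2-fold lower in mut-FTO than in Vector (log2 -4.02, SE 0.69; adjusted p = 0.00309) and 8.79-fold lower than in FTO (adjusted p = 0.0329). These values rest on 20 counts in mut-FTO, and the log2 change against Vector was -3.40 without mut-FTO replicate 1 and -5.26 without replicate 2. Against FTO the difference was 2.52 and 4.38 without these libraries, and its call was lost without any FTO library, Vector replicate 2 or mut-FTO replicate 3 (adjusted p = 0.0540 to 0.159). XAF1, which counters the apoptosis inhibitor XIAP, was at 3.68, 4.47 and 13.6 CPM in Vector, 1.33, 1.10 and 1.72 in FTO cells and 1.57, 2.85 and 1.07 in mut-FTO cells. Both overexpressing groups lay below Vector. It was called in mut-FTO (log2 -2.0, SE 0.50; adjusted p = 0.0287), with -1.17 when Vector replicate 3 was left out and no call without mut-FTO replicate 1 or 3 (adjusted p = 0.124 to 0.127). In FTO it had a log2 fold change of -2.39 (SE 0.51; adjusted p = 0.0554), and was called without Vector replicate 3 (-1.58, adjusted p = 0.0281). EPSTI1 was called lower in mut-FTO (log2 -1.68, SE 0.29) and, without Vector replicate 3, in FTO (log2 -1.19, adjusted p = 0.0427). IFI35 and SP110 were called in neither group. IFI44L, a relative of IFI44, had 0, 7 and 6 counts in Vector, only 2 in all FTO libraries and 0 in every mut-FTO library.

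Among effectors that act on RNA and translation, 2 of 11 were called lower in FTO, 8 of 11 were called lower in mut-FTO, and 5 of 11 were called higher in FTO than in mut-FTO. Of all genes tested, 0.438%, 4.51% and 1.20% were called in these directions. The oligoadenylate synthetases are enzymes that double-stranded RNA switches on. OAS2 was at 20.05, 23.4 and 29.8 CPM in Vector, 7.81, 6.79 and 7.10 in FTO cells and 4.70, 4.24 and 4.65 in mut-FTO cells. The 3 groups did not overlap. OAS2 fell 3.38-fold in FTO (log2 -1.76, SE 0.20; adjusted p = 0.00129) and 5.38-fold in mut-FTO (log2 -2.43, SE 0.20; adjusted p = 2.05e-05), and the FTO level was 1.59-fold that of mut-FTO without a call (adjusted p = 0.114), or with one when Vector replicate 3 was left out (log2 0.66, adjusted p = 0.0158). OAS3, the longest synthetase, was at 117, 138 and 128 CPM in Vector, 69.0, 71.3 and 56.4 in FTO cells and 55.7, 79.2 and 77.9 in mut-FTO cells. FTO and mut-FTO overlapped each other and lay below Vector (log2 -0.96, SE 0.18, adjusted p = 0.0272, and -0.85, SE 0.18, adjusted p = 0.0100). The call in FTO was lost without any FTO library, Vector replicate 2 or mut-FTO replicate 3 (adjusted p = 0.0635 to 0.171). OAS1 was called lower in mut-FTO (log2 -1.16, SE 0.24) and in FTO without Vector replicate 3 (log2 -0.95, adjusted p = 0.0104).

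OASL, a relative without synthetase activity that helps RIG-I, was called lower in mut-FTO and not in FTO. It was at 63.2, 58.8 and 38.1 CPM in Vector, 49.6, 47.5 and 46.9 in FTO cells and 13.6, 15.8 and 15.7 in mut-FTO cells. FTO overlapped Vector (log2 -0.15, SE 0.19), and mut-FTO stood apart from both, 3.55-fold below Vector (adjusted p = 0.000147) and 3.20-fold below FTO (log2 1.68 for FTO against mut-FTO, SE 0.20; adjusted p = 0.000950). Its values within FTO and mut-FTO were tight. Among the Vector libraries only replicate 3 lay below FTO. With that library left out the log2 fold change in FTO was -0.37 (SE 0.13; edgeR adjusted p = 0.130).

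The IFIT genes encode proteins with tetratricopeptide repeats that capture foreign RNA and slow translation. IFIT2 was at 34.0, 39.3 and 57.8 CPM in Vector, 27.7, 28.5 and 29.2 in FTO cells and 9.14, 6.59 and 7.25 in mut-FTO cells. IFIT3, which stabilizes IFIT1, was at 64.8, 66.3 and 103 CPM in Vector, 61.7, 59.8 and 54.3 in FTO cells and 27.8, 26.0 and 24.3 in mut-FTO cells. IFIT1, which binds messages lacking a ribose-methylated cap, was at 4.997, 6.04 and 8.97 CPM in Vector, 4.89, 4.96 and 3.52 in FTO cells and 2.30, 1.26 and 1.04 in mut-FTO cells. For each of these genes every FTO library lay below every Vector library, by small margins for IFIT1 and IFIT3, and mut-FTO lay below FTO. In FTO against Vector log2 fold changes were -0.62 (SE 0.21), -0.41 (SE 0.19) and -0.58 (SE 0.32) for IFIT2, IFIT3 and IFIT1, with no call. Vector replicate 3 was the highest Vector library for each. With it left out these changes were -0.39, -0.18 and -0.33, again with no call. In mut-FTO IFIT2 fell 5.70-fold (adjusted p = 3.49e-05), IFIT3 2.99-fold (adjusted p = 0.000324) and IFIT1 4.33-fold (adjusted p = 0.00226). FTO was above mut-FTO by 3.71-fold for IFIT2 (adjusted p = 0.000943), 2.25-fold for IFIT3 (adjusted p = 0.00804) and 2.90-fold for IFIT1 (adjusted p = 0.0381). That call was lost for IFIT3 without FTO replicate 2 or mut-FTO replicate 2 or 3 (adjusted p = 0.0542 to 0.0638), and for IFIT1 without any FTO library, Vector replicate 2 or mut-FTO replicate 2 or 3 (adjusted p = 0.0549 to 0.186). IFIT5 was not called (log2 -0.15 in FTO and -0.63 in mut-FTO, SE 0.24 each). IFIT genes resemble each other, and reads may have been split between them.

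SLFN11, which cleaves transfer RNAs and blocks viral protein synthesis, was at 7.71, 9.23 and 9.79 CPM in Vector, 3.32, 4.80 and 5.09 in FTO cells and 0.460, 0.306 and 0.751 in mut-FTO cells. The 3 groups did not overlap. It fell 17.4-fold in mut-FTO (log2 -4.12, SE 0.34; adjusted p = 1.89e-05), and FTO was 8.59-fold above mut-FTO (log2 3.10, SE 0.33; adjusted p = 0.000629). The log2 fold change in FTO was -1.02 (SE 0.29; adjusted p = 0.173). Its family member SLFN5 had log2 fold changes of -0.10 in FTO and 0.0044 in mut-FTO (SE 0.23 each). ISG20, an exonuclease of single-stranded RNA, was not called in mut-FTO (log2 -1.06, SE 0.30; adjusted p = 0.0532), and was called without Vector replicate 3 (log2 -1.36, adjusted p = 0.000212), as was its difference between FTO and mut-FTO (log2 0.70, adjusted p = 0.0258). No promoter window was at hand for OAS2, OASL, IFIT2 or SLFN5, and that of SLFN11 held no match to the core.

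**Figure D3:**
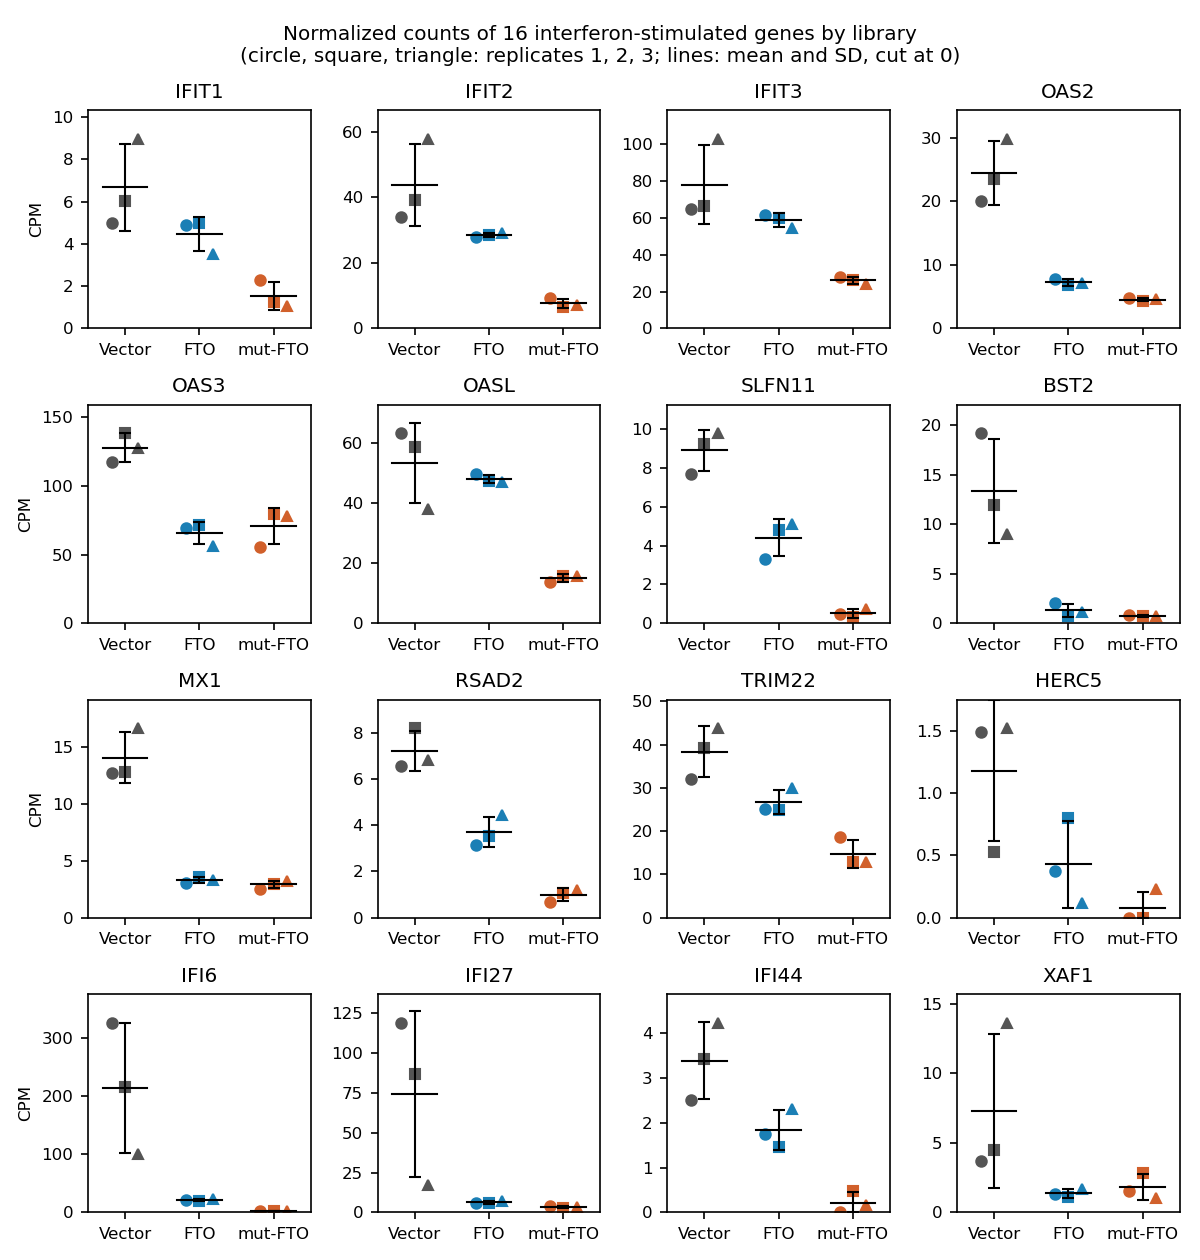
CPM (y axis, from 0) of 16 members in each of the 9 libraries, by group on the x axis. Symbols stand for replicates, and lines for the mean and SD of 3 libraries. IFI6, IFI27, BST2, MX1 and OAS2 are low in FTO and mut-FTO, while OASL, IFIT2 and IFIT3 are low in mut-FTO and stand closer to Vector in FTO.

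At membranes and in virus assembly, 2 of 11 tested effectors were called lower in FTO and 6 in mut-FTO, and 2 were called higher in FTO than in mut-FTO. The shares of all genes called in these directions were 0.438%, 4.51% and 1.20%. BST2 (tetherin), which ties budding virus particles to the cell surface, was at 19.2, 11.9 and 8.996 CPM in Vector, 2.02, 0.724 and 1.14 in FTO cells and 0.811, 0.679 and 0.665 in mut-FTO cells. It fell 10.3-fold in FTO (log2 -3.36, SE 0.39; adjusted p = 0.00151) and 18.5-fold in mut-FTO (log2 -4.21, SE 0.41; adjusted p = 6.69e-05). FTO and mut-FTO overlapped (log2 0.85, SE 0.40; adjusted p = 0.379). MX1, a GTPase that traps viral nucleocapsids, was at 12.7, 12.9 and 16.7 CPM in Vector, 3.05, 3.59 and 3.32 in FTO cells and 2.57, 2.99 and 3.24 in mut-FTO cells. Its falls were 4.24-fold (log2 -2.08, SE 0.22; adjusted p = 0.000784) and 4.81-fold (log2 -2.27, SE 0.22; adjusted p = 6.11e-05), and FTO and mut-FTO again overlapped (log2 0.18, SE 0.21; adjusted p = 0.793). The calls of BST2 and MX1 against Vector held with any library left out. MX2, its nuclear pore relative, had 6, 8 and 12 counts in the Vector libraries, 2, 5 and 0 in those of FTO and 0 in every mut-FTO library. Setting the 3 mut-FTO libraries together at 3 counts and taking the Vector count as exact, MX2 was 8.72-fold lower there by total counts. With no filter on low counts its edgeR adjusted p was 0.122.

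RSAD2 (viperin), which makes a nucleotide that ends viral RNA chains, was at 6.57, 8.19 and 6.82 CPM in Vector, 3.13, 3.54 and 4.43 in FTO cells and 0.676, 1.09 and 1.21 in mut-FTO cells. The groups were separate and in that order. RSAD2 fell 7.26-fold in mut-FTO (log2 -2.86, SE 0.29; adjusted p = 8.78e-05), and FTO was 3.73-fold above mut-FTO (log2 1.90, SE 0.29; adjusted p = 0.00482), while its log2 fold change in FTO was -0.96 (SE 0.26; adjusted p = 0.161). CMPK2, a nucleotide kinase encoded beside RSAD2, fell 3.45-fold in mut-FTO (adjusted p = 0.000487) against -0.90 on the log2 scale in FTO (SE 0.23; adjusted p = 0.113). Without Vector replicate 3 CMPK2 was called in FTO (log2 -1.10, adjusted p = 0.00410) and between FTO and mut-FTO (log2 0.87, adjusted p = 0.00614). TRIM22, a ubiquitin ligase that restricts viruses, was at 32.1, 39.2 and 43.8 CPM in Vector, 25.2, 25.03 and 29.9 in FTO cells and 18.6, 12.8 and 12.9 in mut-FTO cells. No library of 1 group reached into the next. It fell 2.60-fold in mut-FTO (adjusted p = 0.00113) and FTO stood 1.81-fold above mut-FTO (adjusted p = 0.0464). The call between FTO and mut-FTO was lost without any FTO library, Vector replicate 2 or mut-FTO replicate 2 or 3 (adjusted p = 0.0753 to 0.234).

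The IFITM genes, high in level per kilobase in every group, had small estimates. IFITM3 was at 1308, 1130 and 1409 CPM in Vector, 879, 858 and 894 in FTO cells and 790, 1186 and 759 in mut-FTO cells, with no call (log2 -0.55 and -0.49, SE 0.19 each). IFITM1 was called in mut-FTO (log2 -0.64, SE 0.17; adjusted p = 0.0404) and in FTO without Vector replicate 3 (log2 -0.63, adjusted p = 0.0208). IFITM2 had log2 fold changes of -0.21 and 0.04 (SE 0.15 each). PLSCR1, a phospholipid scramblase, SAMD9 and SAMD9L, which block poxvirus translation, were not called. PLSCR1 had log2 fold changes of 0.08 in FTO and 0.07 in mut-FTO (SE 0.17 each).

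In the ISG15 and ubiquitin system 1 of 8 members was called by edgeR, HERC5 in mut-FTO, where 4.51% of all genes were called lower. DESeq2 called HERC5 and ISG15 lower there, where it called 7.09% of all genes lower. HERC5, the ligase that attaches ISG15 to new proteins, was at 1.49, 0.531 and 1.52 CPM in Vector, 0.372, 0.805 and 0.114 in FTO cells and 0, 0 and 0.231 in mut-FTO cells. Its log2 fold change in mut-FTO was -3.85 (SE 1.08; adjusted p = 0.0474) on 8 counts in that group. It was -8.38 without mut-FTO replicate 3, which held all of them, and -3.26 without replicate 1. The call was lost without 7 of the 9 libraries, all but Vector replicate 3 and mut-FTO replicate 3 (adjusted p = 0.0574 to 0.161). ISG15 itself was at 87.5, 62.6 and 19.6 CPM in Vector, 38.1, 37.2 and 43.1 in FTO cells and 26.2, 19.6 and 25.1 in mut-FTO cells. Vector overlapped both other groups, and ISG15 was not called (log2 -0.52 in FTO and -1.26 in mut-FTO, SE 0.38 each). Without Vector replicate 3 it was called in both, at -0.95 (adjusted p = 0.00315) and -1.67 (adjusted p = 2.69e-06), and between FTO and mut-FTO (log2 0.72, adjusted p = 0.00516). USP18, which removes ISG15 and restrains the interferon receptor, had -0.64 and -0.63 (SE 0.24 each), and was called in mut-FTO without Vector replicate 3 (log2 -0.75, adjusted p = 0.0429). UBE2L6, the conjugating enzyme of ISG15, had -0.16 and -0.05 (SE 0.16 each). PARP9, DTX3L and PARP14, an ADP-ribosylation group, and HERC6 were not called.

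Vector libraries differed among themselves in many members, and these differences ran with transcript length. The log2 difference of replicate 3 from the mean of replicates 1 and 2 was -2.58 for IFI27, -1.91 for ISG15, -1.72 for IFI35 and -1.39 for IFI6, whose longest coding transcripts are 725, 787, 1241 and 841 nucleotides. It was above that mean by 1.74 for XAF1 and by 0.88 for SLFN5, a transcript of 10591 nucleotides. The rank correlation of this difference with transcript length was 0.653 over the 45 tested members and 0.364 over 12506 genes, points that share the same 3 libraries. In FTO libraries the same correlation over members ranged from -0.259 to 0.297, and in mut-FTO libraries from -0.273 to 0.172. Mitochondrially encoded genes took 14.97% of counts in Vector replicate 3, 4.16% and 4.20% in Vector replicates 1 and 2, 3.80% to 4.32% in FTO and 5.52% to 7.45% in mut-FTO. Every mut-FTO library thus lay above every FTO library and below Vector replicate 3. Over the members, log2 fold changes against Vector had rank correlations with length of 0.0808 in FTO and 0.0903 in mut-FTO, against -0.321 and -0.216 over 12506 genes. The part of RNA quality or library preparation in these differences was not tested. Without replicate 3 the log2 changes in FTO were -3.67 for IFI6, -4.07 for IFI27, -3.60 for BST2 and -0.99 for OAS3, each farther from 0, and -1.97 for MX1 and -1.61 for OAS2, each nearer to 0.

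**Figure D4:**
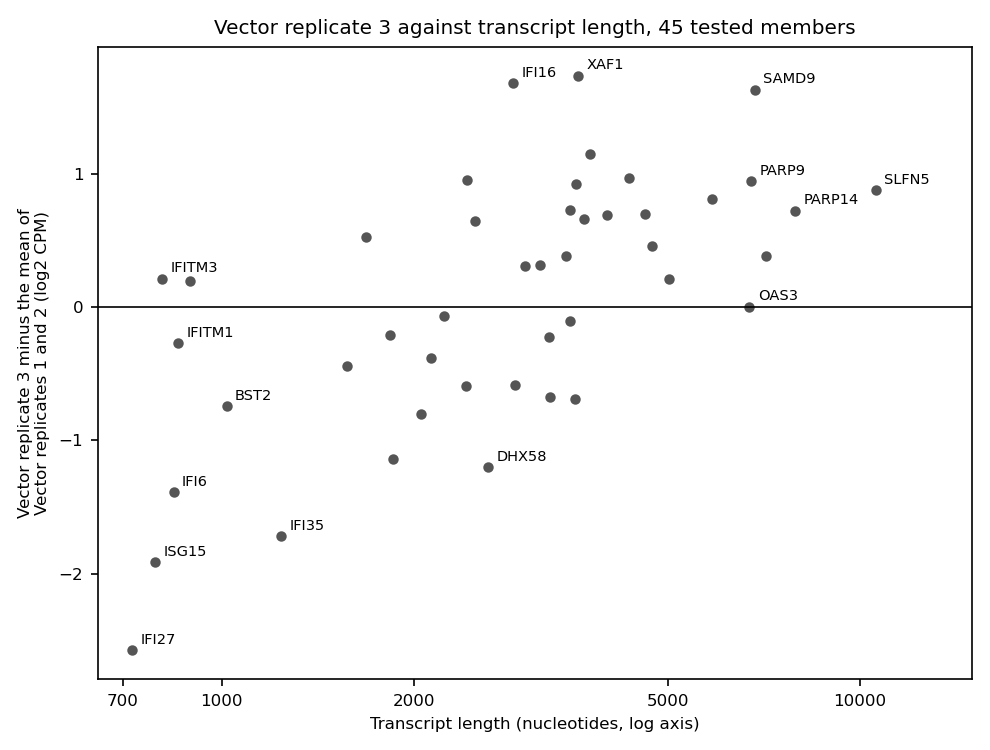
Difference of Vector replicate 3 from the mean of Vector replicates 1 and 2 (y axis, log2 CPM) against transcript length (x axis, nucleotides, log axis), 1 point per tested member. IFI27 (-2.58) and ISG15 (-1.91) lie lowest among the short transcripts, while IFITM3 (0.21) and IFITM2 (0.19), also short, lie above 0, with a rank correlation of 0.653 over 45 genes.

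Other genes of the pathway were read from 5 further lists with 73 genes, of which 63 were tested. In FTO 0 of 63 were called by edgeR, with 8 lower and 0 higher at an unadjusted p below 0.05 (6.95% and 4.94% of all genes), and DESeq2 called LAMP3 alone, lower. In mut-FTO 6 were called lower and 0 higher by edgeR, where 4.51% of all genes were called lower and 3.27% higher. At an unadjusted p below 0.05, 10 were lower there and 4 higher, where 11.0% and 10.1% of all genes were. DESeq2 called 8 lower and 1 higher in mut-FTO, where it called 7.09% of all genes lower. FTO was called higher than mut-FTO for 2 and lower for 0, where 1.20% and 1.13% of all genes were. DESeq2 gave 4 and 3, where it called 2.70% of all genes higher. All 9 receptors and kinases, among them the type I receptor chains IFNAR1 and IFNAR2 and the kinases JAK1 and TYK2, were tested and 0 were called in any comparison, with log2 fold changes of -0.38 to 0.38 in FTO and -0.20 to 0.46 in mut-FTO. At an unadjusted p below 0.05, 2 of them were higher in mut-FTO, of which DESeq2 called 1, IL10RB. The 7 genes that restrain the pathway, SOCS1 and SOCS3 among them, gave 0 calls by edgeR and by DESeq2, with 1 below an unadjusted p of 0.05, between FTO and mut-FTO. Of 11 genes that lead to interferon production 1 was called, MB21D1 (cGAS), which senses cytosolic DNA. It was at 11.6, 11.6 and 11.5 CPM in Vector, 9.32, 8.99 and 7.95 in FTO cells and 6.24, 5.19 and 6.47 in mut-FTO cells, a log2 change of -0.95 in mut-FTO (adjusted p = 0.00725). At an unadjusted p below 0.05, 3 of the 11 were lower in mut-FTO and 2 higher, MAVS (log2 0.39) and TRIM25 (log2 0.41). DESeq2 called MAVS lower in FTO than in mut-FTO.

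Of 35 tested genes in a list of other interferon-induced genes, 5 were called lower in mut-FTO by edgeR, where 4.51% of all genes were. GBP1, a GTPase that coats bacteria and vacuoles, fell 2.82-fold (adjusted p = 0.00120), DDX60, a helicase that aids RIG-I, 3.66-fold (adjusted p = 0.00262), TDRD7, an inhibitor of virus-induced autophagy, 1.86-fold (adjusted p = 0.00536) and LGALS9 (galectin 9) 1.82-fold (adjusted p = 0.0249). LAMP3 was the fifth, named although it falls outside the rule for naming. GBP1 and TDRD7 were also the 2 that were higher in FTO than in mut-FTO, by a log2 difference of 1.13 (adjusted p = 0.0194) and 0.83 (adjusted p = 0.0223). The list's median was -0.28 in FTO and -0.16 in mut-FTO, against -0.52 and -0.70 for the 47 members' tested genes. For all genes it was -0.0020 and -0.0012. Members and lists were chosen with earlier results of these data known, so no conclusion is drawn from the difference between their medians.

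Interferon genes themselves were close to the limit of detection. Of 8 ligands IFNB1, IFNG and IFNL2 had no count in any library, and IFNE alone passed the filter, at 22, 40 and 47 counts in total in Vector, FTO and mut-FTO. IFNK, the interferon that keratinocytes make constitutively, had 9, 6 and 18 counts in the Vector libraries, 9, 4 and 8 in those of FTO and 0 in each mut-FTO library. With mut-FTO set at 3 counts for the group and the Vector count taken as exact, IFNK was 11.1-fold lower in mut-FTO by total counts. There edgeR without a filter on low counts gave an adjusted p of 0.0416. The FTO group was 1.68-fold lower than Vector, with an exact 95% counting interval of 0.942 to 3.05. IFNL1 had 12, 10 and 0 counts in total and IFNA1 15, 10 and 0. Set in the same way they were 4.03-fold and 5.03-fold lower in mut-FTO, with edgeR adjusted p of 0.263 and 0.238 without the filter. These ligands were singled out after their values were seen. Fold values with mut-FTO set at 3 counts leave out the counting error of Vector, and the interval holds for counting error alone.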

How the data were processed

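The deposited table holds raw counts, a whole number for each gene and library. HISAT2 and StringTie are the tools named, per the submitters' processing notes. For versions, counting program, strand setting and annotation no statement was at hand (not given in the sources used here). A mouse build is named although the symbols are human, so no coordinates were taken from the table. Groups and replicate numbers come from the labels. Columns were matched by their letters, and 0 columns were left out. Depth was 32222203 to 37846027 counts per library. Any 2 libraries of a group differed by more than sampling noise.

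The tests used edgeR 4.0.16 (R 4.3.3): filterByExpr (minimum count 10, minimum total 15), TMM factors, and robust quasi-likelihood tests with all 9 libraries and a term per group, adjusted by Benjamini-Hochberg over 13713 genes and called below 0.05. CPM uses TMM-scaled library sizes, and log2 CPM a prior count of 2. The SE is the log2 fold change divided by the root of F. Transcript lengths are the longest coding transcripts of GENCODE 29, found for 91.2% of genes tested. RefSeq synonyms matched the promoter window of DDX58 and 3 listed symbols of the pathway. The script was tested on simulated counts.

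Alternatives were RLE factors, library size alone, DESeq2 1.42.0, limma-voom (limma 3.58.1), no low-count filter, a filter at a mean count of 10, the 6 samples compared, a replicate block and each library left out. Leaving out Vector replicate 3 and mut-FTO replicate 2 together was chosen after seeing the data. Members and lists were chosen with earlier results of these data known. Values in every library are given for IFI6, MX1, OAS2 and IFIT2, for members called in FTO against Vector or FTO against mut-FTO, and for the 12 largest called changes in mut-FTO of at least 1 CPM. Values of further members are given to describe a role. Of each pathway list at most 4 called genes of lowest p are named.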

Additional observations from a re-analysis of the deposited data

How the results depend on the processing

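The 31 called changes of the 16 genes described in full kept their direction under all 18 alternatives, and 23 of them also kept their call under every one. In FTO against Vector the count of called members was 6, against 11 with DESeq2 and 20 without Vector replicate 3 and mut-FTO replicate 2 together, and 4 to 13 with 1 library left out. In FTO against mut-FTO it was 9, against 14 with only the 6 samples compared and 14 without both libraries, and 5 to 15 with 1 library left out. In mut-FTO against Vector it was 20, and 17 to 24 with 1 library left out. The cause of these shifts was not tested. With no filter on low counts IFI27 lost its call in FTO (adjusted p = 0.0681), and with library size alone TRIM22 lost its call between FTO and mut-FTO (adjusted p = 0.0576). No scaling moved the median of all genes by over 0.1. With the replicate number as a block the counts were 5, 17 and 7. Counts for the block, the 6 samples compared and single libraries other than Vector replicate 3 were not set beside a share of all genes. A change in the members cannot be told there from a change in calls over all genes. Same-numbered libraries correlated at -0.127 to 0.106 in their deviations from the group means, and 4 of 18 were best matched by their own number, so the numbers were not taken to pair the samples. At this depth IFI44, HERC5, MX2, IFI44L and the interferon ligands rest on few counts.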
